A study of Homo sapiens with 32 samples.

Results

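JUNB-edited MCF10A cells were compared after 24 h and after 6 h of TGFβ1, to ask how the transcriptome moved between the early and the intermediate time of treatment when JUNB was damaged. MCF10A is an immortalized, non-tumorigenic human mammary epithelial cell line. The comparison used 8 of the 32 RNA-seq libraries of the study, picked by their labels alone: all mut libraries labelled 24 h, 4 in number, against all mut libraries labelled 6 h, also 4. Mut cells, labelled as JUNB knock-out, came from clones 1 and 65, each a line grown from a single cell after CRISPR/Cas9 editing, and each clone was treated in replications 1 and 2. The clones carry an extended deletion within JUNB. According to the study they make no full-length JUNB but retain a smaller JUNB polypeptide. All 8 libraries had TGFβ1 at 5 ng/ml, and all cells of the study were kept with human EGF, hydrocortisone, cholera toxin, insulin and horse serum. WT cells, from clones 2 and 27 with unedited JUNB, were treated in the same way and gave 8 further libraries at these times, and 8 libraries at 72 h and 8 with solvent completed the 32. Although the labels give the solvent libraries time point 0, all plates are described as harvested together after seeding, so that the times differ in the length of TGFβ1 exposure and not of culture. A library is named by clone and replication here, such as 65-2, and the 4 libraries of a clone and replication form a series. The replications are described as independent biological replicates, but the labels do not say that they were separate cultures, and p-values measure the spread between these libraries, which may in part be technical. With 4 pairs from 2 clones, a property of the edit cannot be told apart from a property of the clones.

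TGFβ1 binds a pair of receptor kinases that activate SMAD2 and SMAD3, which enter the nucleus with SMAD4 and regulate genes together with other factors, among them AP-1. JUNB is an AP-1 subunit that pairs with FOS family proteins. In mammary epithelial cells TGFβ1 is known to bring about epithelial-mesenchymal transition (EMT), in which cells lose epithelial junctions, gain mesenchymal adhesion molecules and secrete matrix, and to slow the cell cycle.

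Libraries held 41463465 to 52643961 counts, and levels are given as CPM, the count of a gene scaled to the total of its library, where 3 counts correspond to 0.0570 to 0.0724 CPM. CPM values are not divided by transcript length, so that they compare a gene between libraries and not genes with each other. The 10 most abundant genes took 4.88% to 5.84% of the counts and mitochondrial genes 1.78% to 2.41%. The 8 basal mammary markers summed to 15617 to 19538 CPM at 6 h and to 16812 to 18069 CPM at 24 h, none of them with a mean under 1 CPM. The 7 luminal markers in the table summed to 402 to 489 CPM at 6 h and 306 to 383 CPM at 24 h, with ESR1, KRT19 and PROM1 under 1 CPM. Marker sums were 12.6 to 21.1 CPM at 6 h and 18.9 to 28.1 CPM at 24 h for fibroblasts, with 4 of 5 markers (COL3A1, PDGFRA, PDGFRB and THY1) under 1 CPM. They were 5.69 to 7.18 CPM at 6 h and 8.17 to 10.3 CPM at 24 h for leukocytes, with PTPRC and LYZ under 1 CPM and CD3E at 0 in all 8 libraries, and 18.4 to 22.1 CPM at 6 h and 17.4 to 23.1 CPM at 24 h for endothelium, with VWF under 1 CPM. In such bulk samples, fewer cells with a transcript and less of it per cell cannot be told apart.

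Libraries of series 1-2 stood apart. For each of the 12 genes with the largest rise, given further on, mut 6 h 1-2 was the lowest of the 4 libraries at 6 h, and its own solvent library was the highest of the 4 solvent libraries and above it. The mut solvent 1-2 library held 1413 CPM of FN1 and 87.5 CPM of POSTN, against 249 and 0.466 CPM in the lowest solvent library of each gene. The mut 6 h 1-2 library held 369.7 and 0.627 CPM of the same genes. The mut solvent 1-2 levels also lay above the mut 6 h libraries of the other series, which held 633 to 759 CPM of FN1 and 2.10 to 7.43 CPM of POSTN. At 24 h, 1-2 was the lowest library for 11 of these 12 genes. For the genes with the largest rise the order of the solvent and 6 h libraries of the series thus goes against their labels. Of the 12 genes with the largest fall, mut solvent 1-2 was the lowest solvent library for 7 and above mut 6 h 1-2 for 3. Mut solvent 1-2 also lay above mut 24 h 1-2 for POSTN (19.4 CPM at 24 h) and below it for FN1 (1534 CPM). JUNB went with the labels, at 77.5 CPM in mut solvent 1-2 and 129 CPM in mut 6 h 1-2. Whether the labels of both were exchanged was not tested, and each value given for mut solvent 1-2 or mut 6 h 1-2 is that of the library so labelled. Results were therefore also computed without mut 6 h 1-2, and without all 4 libraries of the series. In the former case mut 24 h 1-2 was measured against the solvent and 72 h libraries of its own series, of which the solvent library is the one just described.

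JUNB itself, on chr19:12791486-12793315 (GRCh38, GENCODE 44, plus strand), was counted in every mut library; the deletion lies within the gene, so that counts over the whole gene do not check the edit. Its level was 202 CPM in 1-1, 129 in 1-2, 436 in 65-1 and 494 in 65-2 at 6 h. At 24 h it was 253, 254, 380.2 and 518 CPM in the same order. The ranges of the times overlapped, and clone 65 lay above clone 1 at both times. The log2 change of 0.28 (95% interval -0.04 to 0.61) did not pass (limma-voom, adjusted p = 0.262), and it was 0.01 without mut 6 h 1-2. Mut libraries held 69.2 to 172 CPM of JUNB with solvent and 122 to 359 CPM at 72 h. WT libraries held 187 to 276 CPM of JUNB at 6 h and 249 to 297 CPM at 24 h. A stretch of the gene is shared with exons of HOOK2, and reads there could have been assigned to either.

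From 6 h to 24 h of TGFβ1, mut cells gained transcripts of the extracellular matrix, its proteases and its receptors, and lost transcripts of squamous differentiation, of some keratins and of mitosis. Of 14865 genes tested, 1722 were differentially expressed genes (DEGs, limma-voom with the series as a block, Benjamini-Hochberg adjusted p under 0.05), which is 11.6%. Of these, 639 rose (4.3% of genes tested) and 1083 fell (7.29%). With TMM composition factors in place of plain library size, 804 rose (5.41%) and 773 fell (5.2%), 10.6% in all, so that the share of DEGs that rose was 37.1% under library size and 51.0% under TMM. The changes were mostly small: the median absolute log2 change of the DEGs was 0.34, and 149 DEGs changed by at least 1 on the log2 scale, of which 91 rose and 58 fell. Of the DEGs, 94.9% had the same sign in all 4 pairs of libraries (32.3% of all genes tested), and for 61.6% the 4 libraries at 24 h did not overlap the 4 at 6 h (12.1% of all genes tested). Without mut 6 h 1-2 there were 761 DEGs (5.12%), of which 322 rose (2.17%) and 439 fell (2.95%). Without the whole series 1-2 there were 2018 (13.6%), with 827 higher (5.56%) and 1191 lower (8.01%), and they included 83.6% of the 1722. Without the block there were 464 (3.12%), with 193 higher (1.3%) and 271 lower (1.82%).

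The upstream sequences of strongly changed genes are shown first, to place the genes named below and the motifs of factors downstream of TGFβ1. They are the 250 bases before the annotated start, from RefSeq (GRCh38.p14), for the 3 genes with the largest rise and the 3 with the largest fall that have a single start in the promoter table. Capitals mark matches on either strand to TGANTCA, the AP-1 site, to CAGAC, the SMAD box, or to CAGGTG, an E-box bound by SNAIL and ZEB factors.
POSTN, chr13:37598769-37599018, minus strand: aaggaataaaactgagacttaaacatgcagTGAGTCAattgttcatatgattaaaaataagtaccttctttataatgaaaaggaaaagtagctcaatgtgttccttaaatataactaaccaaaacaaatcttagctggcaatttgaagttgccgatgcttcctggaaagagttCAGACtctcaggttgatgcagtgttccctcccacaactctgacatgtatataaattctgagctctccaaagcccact
COL6A3, chr2:237414165-237414414, minus strand: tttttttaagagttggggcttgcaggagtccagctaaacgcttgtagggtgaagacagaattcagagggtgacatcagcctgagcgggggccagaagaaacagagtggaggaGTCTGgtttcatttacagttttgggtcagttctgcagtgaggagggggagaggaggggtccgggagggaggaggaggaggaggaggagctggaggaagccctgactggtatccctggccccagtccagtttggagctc
FN1, chr2:215436069-215436318, minus strand: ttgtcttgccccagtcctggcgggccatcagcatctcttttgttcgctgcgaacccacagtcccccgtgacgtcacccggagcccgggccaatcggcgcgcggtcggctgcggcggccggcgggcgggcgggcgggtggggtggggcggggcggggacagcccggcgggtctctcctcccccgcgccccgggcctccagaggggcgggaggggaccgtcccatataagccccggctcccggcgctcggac
CYP4B1, chr1:46798796-46799045, plus strand: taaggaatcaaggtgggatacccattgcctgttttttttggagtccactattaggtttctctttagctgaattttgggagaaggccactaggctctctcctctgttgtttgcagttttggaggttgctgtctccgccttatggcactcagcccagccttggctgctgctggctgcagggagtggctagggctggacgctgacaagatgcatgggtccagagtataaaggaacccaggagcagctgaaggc
CAMK2B, chr7:44325595-44325844, minus strand: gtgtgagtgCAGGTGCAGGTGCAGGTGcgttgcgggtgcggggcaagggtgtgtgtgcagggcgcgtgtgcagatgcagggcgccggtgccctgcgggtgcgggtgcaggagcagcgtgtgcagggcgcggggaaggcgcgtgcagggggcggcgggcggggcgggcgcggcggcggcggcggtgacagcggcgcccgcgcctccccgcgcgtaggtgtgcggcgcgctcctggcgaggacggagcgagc
S100A9, chr1:153357604-153357853, plus strand: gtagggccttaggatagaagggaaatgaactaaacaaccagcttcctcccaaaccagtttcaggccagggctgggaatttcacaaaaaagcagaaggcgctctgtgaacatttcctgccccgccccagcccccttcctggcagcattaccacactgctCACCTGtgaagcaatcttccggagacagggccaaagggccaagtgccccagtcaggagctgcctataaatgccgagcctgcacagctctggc

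Among the 35116 upstream stretches of this length in the table, 6.57% held TGANTCA, 38% CAGAC and 17.5% CAGGTG. The POSTN stretch held 1 AP-1 match and 1 SMAD box, and that of COL6A3 held 1 SMAD box. The stretches of FN1 and CYP4B1 held no match to any of the 3 motifs. CAMK2B had 3 adjacent E-boxes and S100A9 had 1. The RefSeq starts can differ from the GENCODE gene spans used to name the counts. The stretches of CYP4B1 and CAMK2B lie wholly within those spans, and those of POSTN, COL6A3 and FN1 reach into theirs. A match describes the letters of these windows only, and binding was not measured in these libraries.

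The 12 largest rises and falls are given among DEGs with a mean of at least 10 CPM, the same sign in all 4 pairs and no overlap of the times. POSTN led the rises. POSTN, on chr13:37562583-37598844, codes for periostin, a secreted matrix protein that binds integrins. It was counted at 2.10 CPM in 1-1, 0.627 in 1-2, 7.43 in 65-1 and 6.76 in 65-2 at 6 h, and at 54.2, 19.4, 129 and 106 CPM in that order at 24 h. All 4 libraries at 24 h lay above all 4 at 6 h, and the pairs rose by 4.68, 4.92, 4.12 and 3.97 on the log2 scale. The fitted change was 4.25 ± 0.99 (log2, SE; adjusted p = 0.00665), and 3.60 without mut 6 h 1-2 (adjusted p = 0.0317). The levels at 72 h were higher again, at 323 to 537 CPM. POSTN did not pass without the block (adjusted p = 0.0643).

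COL6A3, on chr2:237324003-237414328, codes for a chain of collagen VI, which forms microfibrils around cells. Its level was 60.1, 29.1, 42.5 and 47.0 CPM at 6 h (1-1, 1-2, 65-1 and 65-2) and 242, 109.9, 170.1 and 216 CPM at 24 h. The lowest library at 24 h was thus above the highest at 6 h, and the pairs agreed closely, at 2.01, 1.92, 2.00 and 2.20 on the log2 scale. The fitted rise was 2.02 ± 0.32 (adjusted p = 0.000249).

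FN1, on chr2:215360440-215436073, codes for fibronectin, a matrix protein long used as a readout of TGFβ1 and of EMT. It was at 759, 369.7, 656 and 633 CPM at 6 h and at 3437, 1534, 2225 and 2297 CPM at 24 h, in the same order. Here too the times did not overlap, and 1-2 was the lowest library at each. The rise was 1.96 ± 0.38 on the log2 scale (adjusted p = 0.00185; 0.0205 without mut 6 h 1-2), and 72 h libraries reached 3988 to 9096 CPM.

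A further 8 of the 12 largest rises were ADAM19, a membrane metalloproteinase (1.77), CHRNA9, a nicotinic receptor subunit (1.49), SERPINE2, a serine protease inhibitor (1.41), CCDC80, a secreted matrix-associated protein (1.38), KANK4, an adaptor of the KANK family linked to adhesions (1.36), NT5E, the ecto-nucleotidase CD73 (1.29), TGM2, a transglutaminase that crosslinks proteins (1.25), and FAP, a surface serine protease (1.21), all as log2 changes. Adjusted p-values of the 12 lay between 9.16e-05 and 0.0316. Being named required the same sign in all pairs and no overlap of the times, so these features are not findings about them. Of the 12, 9 had a higher mean at 6 h than with solvent, and all 12 when series 1-2 was left out of both means. At 72 h, 11 had a higher mean than at 24 h. Without mut 6 h 1-2, 9 of the 12 still passed; ADAM19 (adjusted p = 0.175), CHRNA9 (0.175) and KANK4 (0.086) did not. All 12 passed without the whole series. Exons of ADAM19, TGM2 and FAP overlap another gene of the table.

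**Figure D1:**
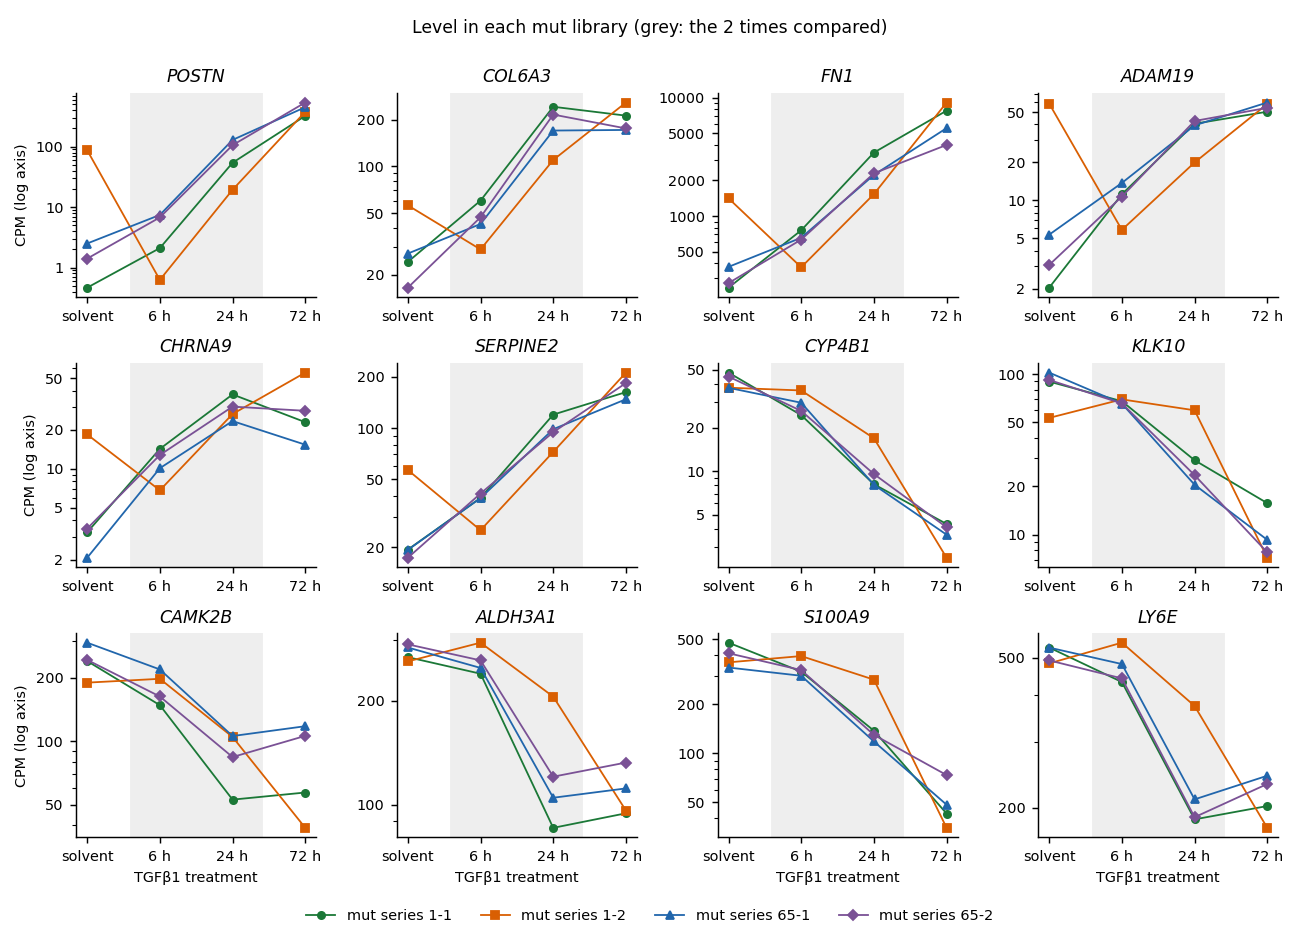
Level in CPM (log axis) of 12 genes in all 16 mut libraries, with a line for each series over solvent, 6 h, 24 h and 72 h of TGFβ1; the grey band marks the 2 times compared. The 6 strongest rises (POSTN to SERPINE2) and falls (CYP4B1 to LY6E) are shown, and series 1-2 (orange) starts high with solvent and is the lowest at 6 h for each of the 6 that rose.

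CYP4B1 led the falls taken by the same criteria. KRT15, given further on, fell further, but its times overlapped. CYP4B1, on chr1:46757838-46819413, codes for a cytochrome P450 monooxygenase. Its level was 24.4, 36.1, 29.7 and 26.1 CPM at 6 h and 8.15, 16.9, 8.08 and 9.57 CPM at 24 h (1-1, 1-2, 65-1 and 65-2). No library at 24 h reached the lowest at 6 h, and the change was -1.49 ± 0.17 (log2, SE; adjusted p = 1.38e-05). Libraries at 72 h held 2.53 to 4.33 CPM.

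KLK10, a kallikrein-related serine protease, was nearly even at 6 h, at 67.8, 69.6, 65.5 and 65.6 CPM, and spread out at 24 h, at 29.1, 59.5, 20.5 and 23.5 CPM. Library 1-2 was the highest at 24 h, and its pair changed by -0.23 against -1.22 to -1.68 in the other pairs. The fitted fall was -1.14 ± 0.27 (adjusted p = 0.00704), and it did not pass without the block (0.594). ALDH3A1, an aldehyde dehydrogenase, showed the same picture, with 239, 294, 249 and 261 CPM at 6 h and 85.8, 205, 105 and 121 CPM at 24 h (-1.08 ± 0.17, adjusted p = 0.000186). Mut 24 h 1-2 was the highest of the 4 libraries at 24 h for 11 of the 12 largest falls.

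CAMK2B, a subunit of calcium/calmodulin-dependent kinase II (-1.10), S100A9 (-1.08) and S100A8 (-0.97), the subunits of calprotectin, LY6E, a membrane-anchored protein of the LY6 family (-1.04), SUSD2, a membrane protein (-0.99), ENTPD2, an ecto-ATPase (-0.99), KLK5, another kallikrein (-0.96), and SYBU, syntabulin, a linker of vesicles to kinesin (-0.93), were 8 of the other 9. SAPCD2, a regulator of spindle orientation, completed the 12, with 55.3 to 103 CPM at 6 h and 25.1 to 45.7 CPM at 24 h (adjusted p = 0.000679). All 12 passed without mut 6 h 1-2, without series 1-2 and with TMM factors, and 6 of them without the block. Of the 12, 10 had a lower mean at 6 h than with solvent and 11 a lower mean at 72 h than at 24 h. Exons of CAMK2B overlap YKT6, and reads there could have been assigned to either.

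**Figure D2:**
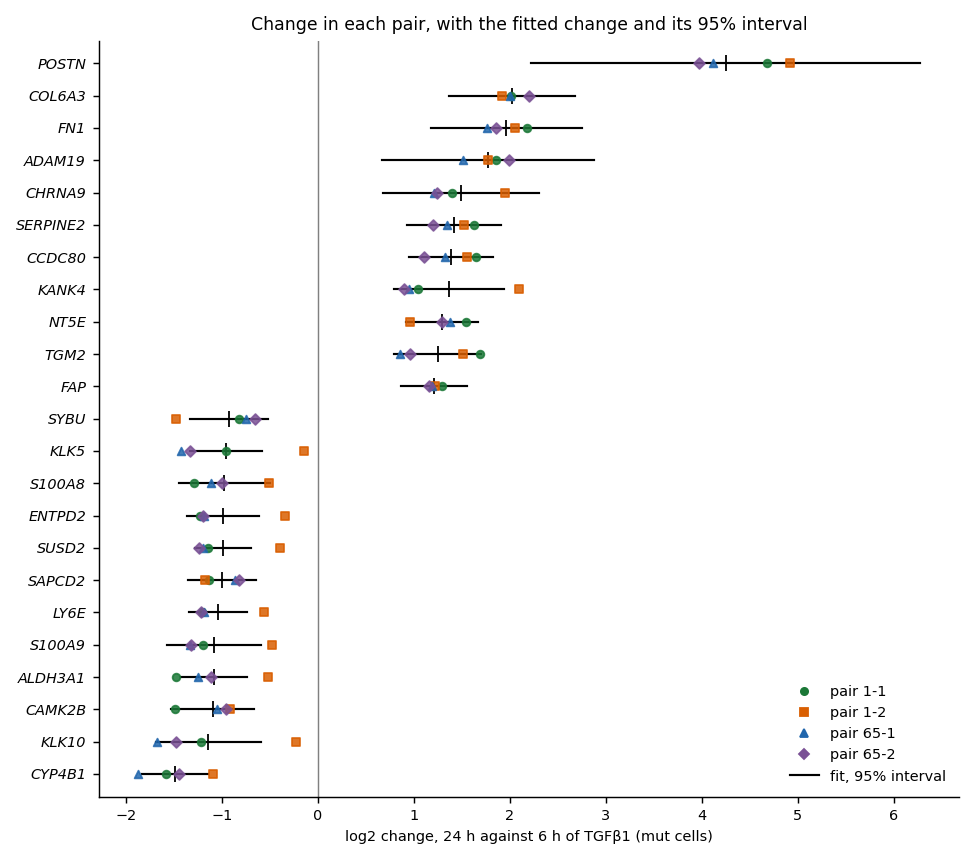
Log2 change from 6 h to 24 h of TGFβ1 in each of the 4 mut pairs (coloured symbols) for 11 of the 12 genes with the largest rise and the 12 with the largest fall; black bars give the fitted change and its 95% interval. Pair 1-2 (orange squares) is the nearest to 0 for 10 of the 12 falls and the farthest from it for SYBU and SAPCD2.

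Beyond these genes, 30 lists, holding 498 genes, grouped by function, were counted, and 14 of them had more members that rose than fell, 14 the reverse and 2 no DEG. In each case the count is set against 4.3% of all tested genes that rose and 7.29% that fell, and the median against -0.03 for all tested genes. Of the 28 lists with a DEG, 11 had none without the block, and these are named where they are described.

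**Figure D3:**
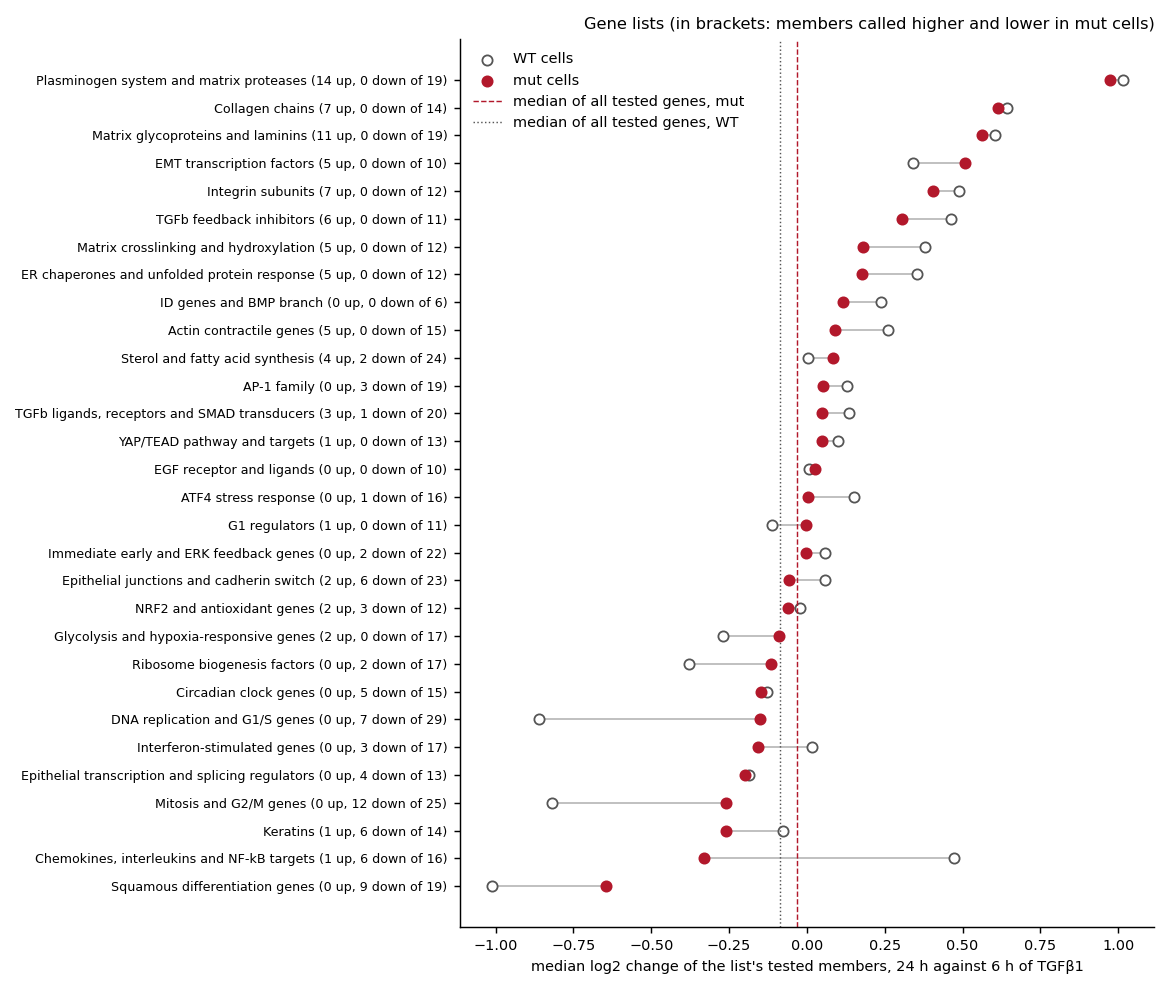
Median log2 change from 6 h to 24 h of TGFβ1 over the tested members of 30 gene lists, in mut cells (filled) and WT cells (open), with the numbers of members called higher and lower in mut cells in brackets; vertical lines give the medians of all tested genes. In mut cells the plasminogen and protease list is highest at 0.97 and the squamous list lowest at -0.65, and the largest gaps between mut and WT are at the chemokine, DNA replication and mitosis lists.

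Genes of the TGFβ pathway moved modestly. Of 11 feedback inhibitors, 6 rose and none fell, with a median of 0.31. PMEPA1, which sequesters receptor-regulated SMADs, was at 433, 188, 418 and 466 CPM at 6 h and 833, 600.3, 664 and 742 CPM at 24 h (0.99 ± 0.23, adjusted p = 0.00732). The low library at 6 h was 1-2, and without it the change was 0.61 and did not pass (adjusted p = 0.0675). SMAD7, the inhibitory SMAD (0.26), SMURF2, a ubiquitin ligase of receptors and SMADs (0.58), SKI (0.31) and SKIL (0.50), corepressors of SMADs, and SMAD6 (1.43, from at most 0.327 CPM at 6 h to at most 1.18 CPM at 24 h), another inhibitory SMAD, also rose. Of the 11, 2 passed without mut 6 h 1-2, with a median of 0.19, and 3 without the block. Of 20 ligands, receptors and SMADs (median 0.05), 3 rose, namely LTBP1, which anchors latent TGFβ in the matrix (0.64), LTBP2 (0.44) and TGFB1 (0.33). TGFBR3, the coreceptor betaglycan, fell (-0.54). LTBP1 went from 214 to 256 CPM over the libraries at 6 h to 303 to 411 CPM at 24 h, without overlap (adjusted p = 3.56e-05). LTBP2 and TGFBR3 did not pass without mut 6 h 1-2 (adjusted p = 0.283 and 0.159) or without series 1-2 (0.0516 and 0.142). None of the 6 tested ID and BMP genes passed (median 0.11), and ID1, an inhibitor of basic helix-loop-helix factors, changed by -0.05.

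Transcription factors of EMT rose in part. Of 10 tested, 5 rose and none fell, with a median of 0.51. HMGA2, an architectural chromatin protein, was at 105, 62.5, 96.7 and 97.7 CPM at 6 h and 163, 115, 179 and 154 CPM at 24 h (0.76 ± 0.12, adjusted p = 0.000186). SNAI2, a repressor that binds E-boxes, was at 164, 109, 150.2 and 159.8 CPM at 6 h and 231, 177, 223 and 226 CPM at 24 h (0.57 ± 0.13, adjusted p = 0.00447). Neither gene's times overlapped. SOX4 (0.53), ZEB1 (0.49) and TWIST2 (0.33) also rose, and SNAI1 (0.55, adjusted p = 0.137) did not pass. Without mut 6 h 1-2, 4 passed, and ZEB1 (adjusted p = 0.142) did not. Among 19 AP-1 genes, the family of JUNB, none rose and 3 fell, with a median of 0.05. FOS (-0.47) and FOSL2 (-0.30) were among those that fell. Without the block none of the list passed. FOS, the partner of JUN proteins, was at 53.8, 39.3, 53.1 and 41.6 CPM at 6 h and 34.6, 41.3, 31.0 and 29.2 CPM at 24 h. The times of FOS overlapped through 1-2, where it did not decrease, and the fall passed with and without mut 6 h 1-2 (adjusted p = 0.00582 and 0.00353). JUN changed by 0.30 (adjusted p = 0.192) and ATF3 by -0.18 (0.724). Of 22 immediate early and ERK feedback genes, 2 fell, DUSP5, an ERK phosphatase (-0.33), and ZFP36, an mRNA decay factor (-0.21), with a median of -0.00 for the list. Neither passed without mut 6 h 1-2 (adjusted p = 0.166 and 0.0912) or without the block (0.355 and 0.174). None of 10 genes of the EGF receptor and its ligands passed (median 0.02).

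Matrix genes rose in all 3 of their lists. Of 14 collagen chains 7 rose (median 0.61), of 19 matrix glycoproteins and laminins 11 rose (0.56), and of 12 crosslinking and hydroxylating enzymes 5 rose (0.18); no member of the 3 lists fell. Without mut 6 h 1-2, 5, 9 and 4 passed, with a median of 0.09 for the enzymes, and without the block 5, 6 and 2. COL6A2, another chain of collagen VI (1.21), and COL4A1, of the basement membrane (0.90), led the collagens after COL6A3, which was not in the list. COL4A1 was at 219, 124, 213 and 237 CPM at 6 h and 489, 319, 304 and 353 CPM at 24 h (adjusted p = 0.00443). TNC, tenascin C, rose by 0.93 (adjusted p = 0.00315), and PLOD2, a collagen lysyl hydroxylase, by 0.45. LOX, a lysyl oxidase, changed by 0.01.

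Proteases and their inhibitors had the highest median of any list, 0.97, with 14 of 19 risen and none fallen. Without mut 6 h 1-2 the median was 0.59 and 8 passed, without series 1-2 it was 0.86 and 13 passed, and without the block 6 passed. MMP9, a gelatinase, was at 2.06, 1.69, 1.24 and 2.41 CPM at 6 h and 13.6, 8.29, 4.41 and 8.08 CPM at 24 h (2.17 ± 0.44, adjusted p = 0.00250). MMP3, MMP10 and MMP13 passed as well, yet none exceeded 0.437 CPM at 6 h or 1.45 CPM at 24 h in any library, so that their size is uncertain.

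Cell adhesion and the cytoskeleton followed with smaller steps. Of 12 integrin subunits 7 rose (median 0.41; 5 without mut 6 h 1-2), led by ITGB3 (1.17) and ITGB6 (0.85), the latter a partner in an integrin that activates latent TGFβ. ITGB3 stayed between 1.06 and 2.06 CPM at 6 h and between 2.34 and 6.63 CPM at 24 h. Of 15 actin contractile genes 5 rose (median 0.09). Leaving out mut 6 h 1-2 gave 2 with a median of 0.00, and leaving out the block 1. TAGLN, an actin-binding protein of contractile cells, was at 216, 162, 274 and 296 CPM at 6 h and 457, 375, 345 and 411 CPM at 24 h (0.77 ± 0.16, adjusted p = 0.00260), and MYL9, a myosin light chain, rose by 0.54. Both steps were larger in clone 1 than in clone 65; for TAGLN the pairs of clone 1 changed by 1.09 and 1.21 and those of clone 65 by 0.33 and 0.47. ACTA2, smooth muscle actin, changed by -0.06.

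Epithelial genes showed a partial change. CDH2, N-cadherin, was at 42.7, 35.5, 53.6 and 53.2 CPM at 6 h and 77.9, 57.4, 82.4 and 86.2 CPM at 24 h (0.71 ± 0.12, adjusted p = 0.000401), and VIM, vimentin, rose by 0.30 (adjusted p = 0.00933, 0.0601 without mut 6 h 1-2). CDH1, E-cadherin, was at 430.2, 454, 381 and 390.0 CPM at 6 h and 402, 438, 371 and 377 CPM at 24 h, with overlapping times and a change of -0.06 (95% interval -0.24 to 0.12, adjusted p = 0.730). Libraries at 72 h held 227 to 249.8 CPM of CDH1. Of 23 junction genes 2 rose and 6 fell (median -0.06; 1 and 4 without mut 6 h 1-2, 1 and 1 without the block). TJP3, a tight junction scaffold (-0.99), CLDN7, a claudin (-0.65), EPCAM, an epithelial adhesion molecule (-0.61), PKP2 (-0.46) and PKP3 (-0.20), plakophilins of desmosomes, and CXADR, a tight junction component (-0.37), were those that fell.

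Of 13 epithelial transcription and splicing regulators 4 fell and none rose (median -0.20; 2 without mut 6 h 1-2, 1 without the block): EHF, an ETS factor (-1.33), GRHL3, a grainyhead factor (-0.45), and RBM47 (-0.36) and ESRP2 (-0.34), regulators of RNA. Of 14 keratins 6 fell and KRT14 rose (median -0.26), also without mut 6 h 1-2, while without the block 3 fell and none rose. KRT15, a keratin of basal cells, was at 310.0, 349.9, 212 and 149 CPM at 6 h and 64.7, 165, 42.4 and 33.3 CPM at 24 h. The times overlapped, and every pair decreased, with log2 changes of -1.09 in 1-2 and -2.17 to -2.32 in the others (-1.93 ± 0.27, adjusted p = 7.69e-05). KRT14, also of basal cells, was at 687, 432, 974 and 811 CPM at 6 h and 1258, 839, 1782 and 1530.4 CPM at 24 h, with pairs between 0.87 and 0.96 on the log2 scale (0.90 ± 0.12, adjusted p = 7.07e-05), and clone 65 lay above clone 1 at each time. KRT14 shares near-identical stretches with other type I keratins, and reads may be split among them. KRT8 (-0.42) and KRT18 (-0.44), the keratins of simple epithelium, fell too. Of 19 squamous differentiation genes 9 fell and none rose (median -0.65; 5 without mut 6 h 1-2, 9 without series 1-2 and none without the block). S100A9 was at 317, 395, 299 and 324 CPM at 6 h and 138, 283, 118 and 129.8 CPM at 24 h.

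Cell cycle genes fell slightly. Of 25 genes of mitosis 12 fell and none rose, with a median of -0.26, and of 29 genes of DNA replication 7 fell and none rose, with a median of -0.15. CDC20, an activator of the anaphase-promoting complex, was at 52.1, 56.5, 53.8 and 52.7 CPM at 6 h and 33.6, 45.9, 40.2 and 34.1 CPM at 24 h (-0.49 ± 0.10, adjusted p = 0.00323). CDT1, a licensing factor of replication origins, was at 41.1, 49.0, 53.0 and 42.6 CPM at 6 h and 30.6, 35.1, 36.6 and 30.1 CPM at 24 h (-0.49 ± 0.10, adjusted p = 0.00368). In both genes no library at 24 h reached the lowest at 6 h. MCM2, a subunit of the replicative helicase (-0.24, adjusted p = 0.139), and MKI67, a marker of cycling cells (-0.30, 0.158), did not pass. Without mut 6 h 1-2, 4 mitosis genes and 1 replication gene passed, and without the block 1 and 0. Without that library the median of mitosis was -0.26 and that of replication -0.09. Of 11 tested G1 regulators CCND1, cyclin D1, rose by 0.29 and no other passed, and none did without the block. CDKN1A, the inhibitor p21, changed by 0.14 (adjusted p = 0.0923).

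Among inflammatory genes more fell than rose. Of 16 chemokines, interleukins and NF-κB targets 6 fell and 1 rose (median -0.33). When mut 6 h 1-2 was left out, 2 fell and none rose, and without the block none of the list passed. CXCL1, a chemokine for neutrophils, was at 13.5, 17.2, 17.3 and 21.1 CPM at 6 h and 9.39, 13.1, 11.1 and 14.2 CPM at 24 h; the ranges overlapped, and all 4 pairs decreased (-0.53 ± 0.13, adjusted p = 0.00950). SAA1, an acute phase protein (-0.79), CXCL2 (-0.67), LIF (-0.60), BIRC3 (-0.37) and ICAM1 (-0.33) also fell. IL11, a cytokine of the IL6 family and a known TGFβ target, rose from 2.32 to 4.09 CPM over the 6 h libraries to 5.83 to 11.1 CPM at 24 h (1.25 ± 0.30, adjusted p = 0.00784; 0.0846 without mut 6 h 1-2). Of 17 interferon-stimulated genes 3 fell (IFIT2, OAS3 and IRF1; median -0.16; 2 without mut 6 h 1-2, 1 without the block). Metabolic and stress lists had small medians. In detail, 4 of 24 sterol and fatty acid genes rose and 2 fell (median 0.08), with MSMO1 (0.34) and IDI1 (0.32) of sterol synthesis up and FASN, fatty acid synthase (-0.37), and SREBF1 (-0.27) down. Without mut 6 h 1-2, 3 of the 24 rose and none fell, and without the block 1 rose and none fell. Of 12 ER chaperone genes 5 rose (median 0.18; 1 without mut 6 h 1-2), of 16 ATF4 targets DDIT4 alone fell (-0.33; median 0.00), of 17 ribosome biogenesis factors 2 fell (NHP2 and FBL; median -0.11), of 17 glycolysis genes 2 rose (PFKP and PFKFB4; median -0.09), of 12 NRF2 genes 2 rose and 3 fell (median -0.06), and of 13 YAP/TEAD genes AXL rose (0.31; median 0.05). No gene of the ATF4, ribosome biogenesis and glycolysis lists passed without mut 6 h 1-2, and without the block none of these lists nor of the ER chaperone and YAP/TEAD lists did. Of the NRF2 genes, 2 fell and none rose without mut 6 h 1-2, and 1 fell and none rose without the block. Without series 1-2, 4 glycolysis genes fell and none rose. Of 15 circadian clock genes 5 fell, namely DBP (-1.11), TEF (-0.61), CRY2 (-0.44), PER2 (-0.41) and PER1 (-0.27), and none rose (median -0.15; -0.10 and 2 genes without mut 6 h 1-2, 3 genes without the block). DBP, a clock output factor, was at 1.18 to 2.32 CPM at 6 h and 0.675 to 0.799 CPM at 24 h.

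The change from 6 h to 24 h was then compared with that of WT cells, which share no library with the mut cells. WT cells had 5602 DEGs (37.7% of genes tested), of which 1629 were higher (11%) and 3973 lower (26.7%). With TMM factors WT cells had 5303 DEGs, with 2806 higher and 2497 lower. The share of WT DEGs that rose was thus 29.1% under library size and 52.9% under TMM. Without the block WT cells had 4188 DEGs, with 1064 higher and 3124 lower. All 12 of the largest rises and all 12 of the largest falls were also called in WT cells. Of the 1722 mut DEGs, 78 had the opposite sign in WT cells, 9 of them called there. In WT cells 16 of 19 proteases and inhibitors and 9 of 12 integrin subunits were higher, and 13 of 19 squamous genes lower. A test of the difference between the changes (interaction, mut change minus WT change) called 1083 genes, 7.29% of those tested, of which 874 were higher in mut (5.88%) and 209 lower (1.41%). Under TMM factors it called 762 (5.13%), with 441 higher (2.97%) and 321 lower (2.16%), so that the share higher was 80.7% under library size and 57.9% under TMM. In WT cells the median change of all genes was -0.09 under library size and 0.02 under TMM. Of the 1083, 749 had changes of the same sign that were smaller in mut, 6 had a larger change in mut, and 328 had opposite signs. The interaction called 567 genes (3.81%; 465 higher, 3.13%, and 102 lower, 0.686%) without WT series 27-2, the series farthest from the others in WT cells (its median absolute log2 deviation from the group median was 0.129 at 6 h, against 0.0859 to 0.0998), and 189 (1.27%; 161 higher, 1.08%, and 28 lower, 0.188%) without the block. Of the 1722 mut DEGs, 196 were among the 1083.

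**Figure D4:**
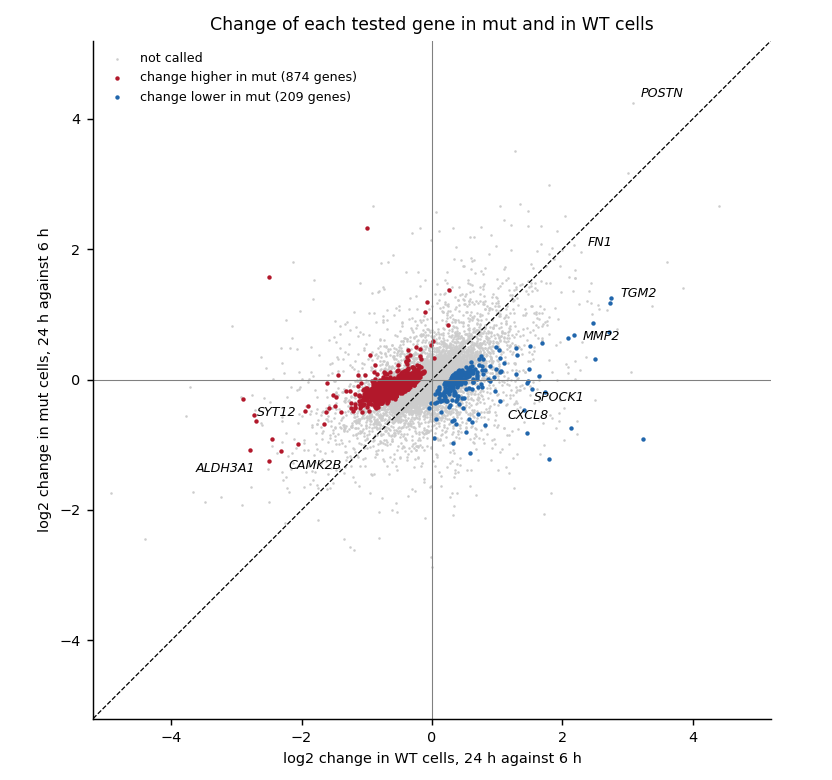
Log2 change from 6 h to 24 h of TGFβ1 in mut cells against that in WT cells for all 14865 tested genes; coloured points are the 1083 genes whose change differed between the genotypes by the interaction test, and the dashed line marks equal change. The change was higher in mut for 874 of them and lower for 209, and 749 of the 1083 changed in the same direction in both genotypes but less in mut.

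Most cell cycle genes had a higher change in mut than in WT cells by this test. The median change of the DNA replication list was -0.15 in mut and -0.86 in WT cells, and 26 of its 29 genes were called higher in the interaction (26 under TMM, 23 without WT series 27-2, and 3 without the block), against 5.88% of all genes. For mitosis the medians were -0.26 and -0.82, and 23 of 25 genes were called (17 under TMM, 17 without WT series 27-2 and 1 without the block). MCM2 was at 81.0 to 101 CPM at 6 h and 72.7 to 85.9 CPM at 24 h in mut cells, against 69.9 to 111 CPM and 37.7 to 54.1 CPM in WT cells. The mut and WT libraries thus overlapped at 6 h and not at 24 h, and the difference of the changes was 0.70 ± 0.15 (interaction, adjusted p = 0.00560). CDT1 gave 0.73 (adjusted p = 0.00595), and FBL, fibrillarin, a factor of ribosome biogenesis, gave 0.41 (0.00437). For FBL and its list of 17, 5 were called higher in mut, with medians of -0.11 in mut and -0.38 in WT cells.

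Inflammatory genes and a few matrix genes differed in the other direction. The chemokine list had a median of -0.33 in mut and 0.47 in WT cells, and 7 of 16 members were called lower in mut (1.41% of all genes; 7 under TMM, 4 without WT series 27-2 and 1 without the block): IL6, CXCL3, IL32, CXCL8, CXCL1, CXCL2 and ICAM1. CXCL8, interleukin-8, was at 10.6, 13.8, 13.4 and 13.9 CPM at 6 h in mut cells, and the pairs changed by -0.50, -0.25, -0.42 and -0.21 to 24 h, which did not pass (-0.33, adjusted p = 0.329). In WT cells it went from 12.7 to 14.9 CPM at 6 h to 24.0 to 34.2 CPM at 24 h and rose by 1.05, and the difference was -1.38 ± 0.27 (adjusted p = 0.00333). CXCL1 fell in mut and rose in WT cells, by 0.71, with a difference of -1.24 (adjusted p = 0.000169). IL6 stayed at or under 1.01 CPM in all 16 libraries at these times.

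By the same test 1 of 14 collagen chains, 1 of 19 glycoproteins and laminins and 2 of 12 enzymes were called lower in mut (1.41% of all genes). Without the block these were 0, 0 and 1. The medians were 0.61, 0.56 and 0.18 in mut and 0.64, 0.61 and 0.38 in WT cells. Of 19 proteases and inhibitors 4 were called lower, and 2 without the block. SPOCK1, a secreted proteoglycan, was even in mut cells, at 42.9, 45.7, 46.6 and 47.1 CPM at 6 h and 41.3, 39.7, 44.6 and 49.5 CPM at 24 h. In WT cells it went from 24.3 to 46.4 CPM at 6 h to 87.0 to 111 CPM at 24 h. The difference of the changes was -1.51 ± 0.13 (adjusted p = 1.78e-07), and it passed without WT series 27-2 (1.21e-06) and without the block (0.000579). MMP2, a gelatinase, rose in both genotypes, in mut from 16.4, 10.1, 19.6 and 19.8 CPM to 32.4, 21.3, 26.8 and 25.3 CPM, by 0.69 (adjusted p = 0.0161; 0.117 without mut 6 h 1-2), and in WT by 2.18, a difference of -1.49 ± 0.27 (0.00198). TGM2 was at 100.2, 74.4, 143 and 155 CPM at 6 h and 323, 213, 259.5 and 300.3 CPM at 24 h in mut cells, while WT cells went from 92.4 to 106 CPM to 636 to 772 CPM. Its difference was -1.50 ± 0.31 (adjusted p = 0.00437). Of the genes with the largest rise, TGM2 was the only 1 of the 12 with a call in the interaction, and FN1 (-0.32, adjusted p = 0.804) and POSTN (1.16, 0.653) did not pass.

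Falls were also shallower in mut cells for some genes. ALDH3A1 fell by 2.79 in WT and by 1.08 in mut cells (difference 1.70 ± 0.26, adjusted p = 0.000461), and 2 others of the 12 largest falls, CAMK2B (1.21, adjusted p = 0.0339 and 0.0512 under TMM) and ENTPD2 (1.07, 0.0216), differed too. None of these 3 passed in the interaction without the block (adjusted p = 0.106, 0.180 and 0.154 in that order). SYT12, a synaptotagmin (difference 1.51), SPRR1B, a cornified envelope precursor (1.51), and SCNN1B, an epithelial sodium channel subunit (1.14), were the others of the 5 largest positive differences among called genes with a mean of at least 10 CPM and no overlap between the changes of the mut and the WT pairs. SPRR1B was at 5.29 to 8.01 CPM at 6 h and 4.72 to 8.69 CPM at 24 h in mut cells, and at 13.0 to 45.3 and 4.64 to 20.4 CPM in WT cells, so that its change in mut cells did not pass (0.07, adjusted p = 0.899). SYT12 was lower in WT at both times, at 6.71 to 18.2 and 2.60 to 5.00 CPM, than in mut, at 61.2 to 98.7 and 56.5 to 71.3 CPM. Of the 10 EMT transcription factors TWIST2 alone was called in the interaction, and none under TMM. Some named genes passed in the interaction only without series mut 1-2. HMGA2 (0.47, adjusted p = 0.0229) and SUSD2 (0.58, 0.0260) were then called higher in mut. TNC (-0.92, 0.0115), TAGLN (-0.76, 0.0246) and MYL9 (-0.73, 0.0303) were then called lower.

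**Figure D5:**
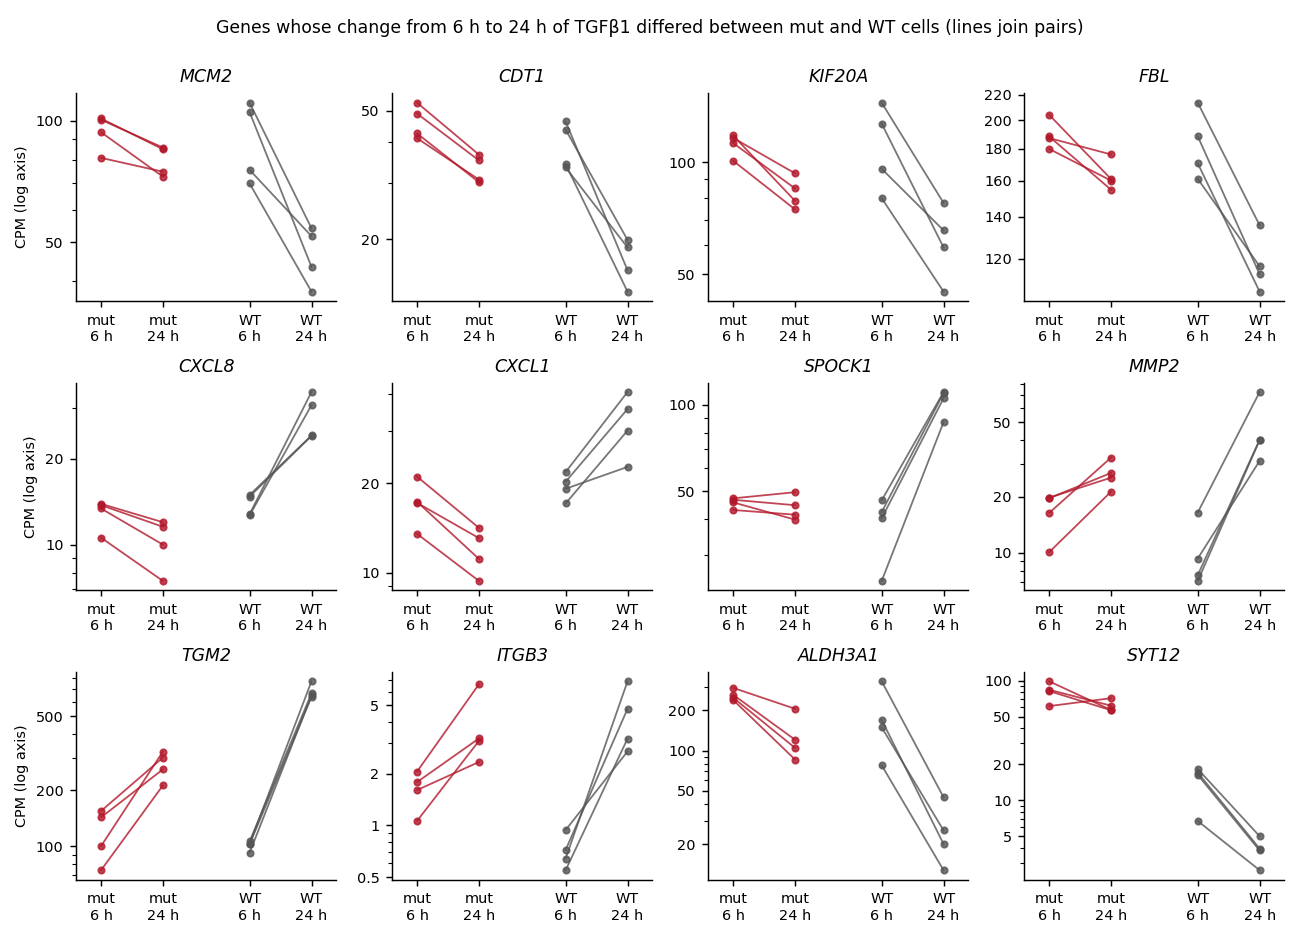
Level in CPM (log axis) at 6 h and 24 h of TGFβ1 in the 4 mut pairs (red) and the 4 WT pairs (grey) for 12 genes whose change differed between the genotypes; each line joins the libraries of a series. MCM2, CDT1, KIF20A and FBL drop further in WT, CXCL8, CXCL1 and SPOCK1 climb in WT and not in mut, and MMP2, TGM2 and ITGB3 climb further in WT. The difference of KIF20A did not pass without series mut 1-2 (interaction, adjusted p = 0.0846).

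The clones were compared with each other as well, with 2 pairs each. No gene was called for a difference between the change of clone 65 and that of clone 1 (limma-voom, 0 of 14865), with 1550 genes at an unadjusted p under 0.05 and 0 called by edgeR or by DESeq2. The 1550 are more than the share of 0.05 of the 14865 genes that would lie there if no gene differed. With so few pairs the lack of calls does not show that the clones responded alike, and the JUNB levels given above differed between them at 6 h.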

How the data were processed

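RNA-seq libraries of JUNB mut and WT MCF10A clones were made with an unstranded TruSeq kit, and the table deposited by the authors holds raw read counts per gene. Reads had been trimmed with Trimmomatic and mapped and counted with STAR on Ensembl GRCh38; versions, annotation release and any use of strand are not given in the sources used here. The table holds 17788 genes, of which 17763 were named through GENCODE 44. No column of the 32 libraries was left unused (0 columns), and no comparison made by the authors was used.

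Counts were analysed with limma-voom on library size (R 4.3.3, limma 3.58.1), in a fit of all 32 libraries with group as condition and the series (clone and replication) as a block. Genes were kept by filterByExpr (minimum count 10, minimum total 15), which left 14865. Genes with a Benjamini-Hochberg adjusted p under 0.05 over all of these were called. Changes are log2 fold changes with their standard errors, from which 95% intervals follow. Depth, given with the results, limits precision for genes near 3 counts, and that floor covers counting error only. The scripts were tested on simulated data. No libraries were counted as duplicates: replicates differed beyond sampling noise, with a chi-square of at least 18.6 times its degrees of freedom.

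The series pairs the libraries. Deviations from the group means correlated by 0.261, 0.171, 0.166 and 0.263 between 6 h and 24 h of the same series. The correlation was 0.0329 to 0.132 between series of the same clone and -0.252 to -0.0847 between series of different clones. Deviations from a group mean cancel out within the group, so that negative values between series are in part built in. How much of the pairing goes with the clone alone was not tested. The alternatives were no block, TMM factors, edgeR 4.0.16 (quasi-likelihood), DESeq2 1.42.0, other filters, only the libraries at 6 h and 24 h, and leaving out single libraries or series.

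The genes named were JUNB, the 12 largest changes in each direction among called genes with a mean of at least 10 CPM, the same sign in all 4 pairs and no overlap of the times, up to 2 called genes per direction and list with a mean of at least 1 CPM, the 5 largest interaction differences in each direction among called genes with a mean of at least 10 CPM and no overlap between the changes of the mut and the WT pairs, and a set of readouts of TGFβ1, EMT and the cell cycle. CXCL1, CXCL3, ICAM1, IL6, KRT8, KRT18, MMP3, MMP10, MMP13, SMAD6 and other list members named in the text were chosen after their values were seen. Some genes that the rule takes in are not reported here. The comparison, its members and the lists were chosen with earlier results of these data known.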

Additional observations from a re-analysis of the deposited data

Results flagged for a closer look

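Among the named genes, 24 values lay far from the other 3 libraries of their group, by Dixon's criterion for 4 values, in 226 groups of 4 examined (10.6%); chance marks about 1 in 20 groups. Of these, 12 were in mut 6 h 1-2 and 8 in mut 24 h 1-2. In mut 6 h 1-2 they were SAPCD2 (103 CPM), SYBU (37.3 CPM), SERPINE2 (25.2 CPM), PMEPA1 (188 CPM), LTBP2 (256 CPM), HMGA2 (62.5 CPM), COL4A1 (124 CPM), KLK6 (1.06 CPM), IL11 (2.32 CPM), SNAI1 (1.18 CPM), JUN (114 CPM) and MMP10 (0 CPM). In mut 24 h 1-2 they were SUSD2 (199 CPM), S100A8 (93.7 CPM), ADAM19 (20.0 CPM), FAP (117 CPM), LTBP1 (303 CPM), SNAI2 (177 CPM), COL6A2 (5.55 CPM) and KRT18 (159 CPM). The others were PLOD2 (355 CPM) and CXCL8 (10.6 CPM) in mut 6 h 1-1, KANK4 (19.4 CPM) in mut 24 h 1-1, and SCNN1B (54.8 CPM) in mut 6 h 65-2.

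The change from 6 h to 24 h differed between mut and WT cells, by the interaction term of limma-voom at an adjusted p under 0.05, for 26 of the 113 named genes, against 7.29% of all tested genes. Some of these genes were named for the size of this difference or after their values were seen, so that the count is raised by the choice. The difference (mut change minus WT change, log2) was positive for ALDH3A1 (1.70), SPRR1B (1.51), SYT12 (1.51), KRT13 (1.24), CAMK2B (1.21), SCNN1B (1.14), ENTPD2 (1.07), CDT1 (0.73), MCM2 (0.70), GINS4 (0.70), KIF20A (0.42) and FBL (0.41). It was negative for IL6 (-2.86), ITGB3 (-1.56), CXCL3 (-1.51), SPOCK1 (-1.51), TGM2 (-1.50), MMP2 (-1.49), IL32 (-1.46), CXCL8 (-1.38), CXCL1 (-1.24), CXCL2 (-1.04), KRT8 (-0.67), ICAM1 (-0.54), DUSP5 (-0.46) and KRT18 (-0.39). IL6 and CXCL3 were at or under 1.99 CPM in every library of both genotypes at these times. Without series mut 1-2 the interaction of KRT13 (adjusted p = 0.146), DUSP5 (0.118) and KIF20A (0.0846) did not pass.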

How the results depend on the processing

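The count of 1722 genes called between 24 h and 6 h in mut cells was within 1.5 times of itself under TMM factors (1577), edgeR (1487), DESeq2 (1843), every gene kept (1566), genes with at least 50 counts on average (1767), only the 6 h and 24 h libraries (1847) and without series mut 1-2 (2018). It was 149 with an absolute log2 change of at least 1. Leaving out a single library gave 587 to 2764: 587 without mut 24 h 1-1, 2764 without mut 24 h 1-2, 794 without 24 h 65-1, 871 without 24 h 65-2, 761 without 6 h 1-2 and 1047 without 6 h 65-1. The interaction count of 1083 was 762 under TMM factors, 567 without series WT 27-2, 61 with an absolute log2 difference of at least 1, and 598 to 1316 with a library left out, 598 without mut 6 h 65-1, 651 without 6 h 65-2, 717 without 24 h 65-1, 721 without 24 h 65-2, 602 without WT 24 h 27-2 and 705 without WT 24 h 27-1. The difference between the clones called 0 genes, 5 with only the 6 h and 24 h libraries, and 0 to 9 with a library left out, 9 of them without mut 6 h 1-1. The cause of these shifts was not tested. Without the replicate block that pairs libraries of a series, 464 genes were called in mut and 189 in the interaction, and 64 of the 97 called named genes lost the call. Of these 97, 40 lost it without mut 6 h 1-2, 12 without series 1-2, 13 with edgeR and 10 with DESeq2. Small changes that did not pass turned sign: the change of SPRR1B mut 24 h against 6 h was -0.0317 without series 1-2 and -0.114 to 0.169 with a library left out, lowest without mut 24 h 1-2, and that of ID1 mut 24 h against 6 h was -0.139 to 0.0224, above 0 without 24 h 65-1 (0.00584), 24 h 65-2 (0.00403) and 6 h 65-1 (0.0224). The change of JUNB mut 24 h against 6 h was 0.00891 to 0.453 with a library left out.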
